A study of Mus musculus with 6 samples.

Results

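The Sox, Pax3 and Tfap2 genes followed here are 9 transcription factors of the melanocyte lineage, Sox10, Sox9, Sox5, Sox6, Sox4, Pax3, Tfap2a, Tfap2b and Tfap2c. They were taken by gene symbol from a table of 35275 gene IDs, and every one of the 9 had a row. RNA was sequenced from Melb-a, an immortal melanoblast line of C57BL/6J mouse skin, whose labels give the cell type as melanocyte. All cultures stood for 48 h in DMEM with 10% serum, PMA, a phorbol ester, at 200 nM, and NDP-α-MSH, an analog of melanocyte-stimulating hormone, at 2 nM. The 3 control cultures also received the vehicle DMSO, and the other 3 received 10 µM iBRD9, a ligand of the bromodomain of the SWI/SNF subunit BRD9. No genotype differed between the groups. The series holds 1 cell line, 1 compound, 1 dose and 1 time, and effects of the compound through BRD9 or through anything else cannot be told apart. Undifferentiated cells were not analysed here.

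These factors act together in neural crest cells and in the melanoblasts that arise from them. SOX10, of the SoxE group, binds DNA through an HMG box and, with PAX3, activates Mitf, the master gene of the melanocyte. It also activates genes of Schwann cells, the other main crest lineage that keeps it. SOX5 and SOX6, of the SoxD group, have no activation domain of their own and modulate the activity of SoxE proteins, while AP-2 proteins, encoded by the Tfap2 genes, bind regulatory DNA of pigment cell genes beside MITF.

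The libraries held 22846391 to 29680952 counts. Levels of single genes below are CPM, read counts set against the size of their library, with TMM factors (trimmed means of M values) to correct for library composition. A gene was tested where edgeR's filter with a minimum count of 10 kept it, and called where the adjusted p was under 0.05 in edgeR's quasi-likelihood test. Of 13602 tested genes, 60.7% were called, with 30.9% lower and 29.8% higher with iBRD9, and in 68.0% the CPM ranges of the groups did not overlap. Scaling by library size alone moved the balance from 4057 higher and 4205 lower to 4999 and 3385, with a median log2 fold change over all tested genes of 0.113 in place of 0.01. DMSO replicate 1 stood apart. Its chi-square per degree of freedom against the other DMSO libraries was 29.2 and 37.5, against 3.06 between those, so results are also given without it. To a lesser degree iBRD9 replicate 1 also stood apart, at 6.33 against each other iBRD9 library and 1.93 between those. Melanocyte markers were high in all libraries, the 7 of the list summing to 15204 to 17124 CPM with DMSO and 14704 to 16244 CPM with iBRD9. The like sums hide shifts within the list. Dct rose (log2 fold change 0.31), Tyr (-2.61), Tyrp1 (-0.66) and Mlana (-0.62) fell, and 3 did not pass. Markers of other cell types summed to far less, and some of them differed between the groups. The 5 keratinocyte markers summed to 3.50 to 4.21 CPM with DMSO and 3.60 to 4.35 CPM with iBRD9, most of it Krt10, while Krt5 and Krt1 had 0 counts in every library. The 4 immune markers summed to 5.69 to 7.49 and 3.84 to 4.61 CPM, with Ptprc and Cd3e at 0 in every library and Cd68 lower with iBRD9 (log2 fold change -0.69, edgeR adjusted p = 0.00399). The 5 fibroblast markers summed to 75.2 to 99.7 CPM with DMSO and 131 to 145 CPM with iBRD9. Of these, Dcn (1.23) and Col1a1 (2.36) rose, Col1a2 (-1.95) fell and 2 did not pass. The 3 endothelial markers summed to 1.09 to 1.48 and 3.96 to 5.78 CPM, with Kdr higher (2.07). The part of these markers in the results below was not tested.

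Of the 9 factors, 4 fell with iBRD9, 2 rose, 1 did not pass the test and 2 were too low to be tested. Sox6, Sox5, Sox10 and Pax3 fell to between 38.1% and 62.6% of their DMSO level, and Tfap2b and Sox4 rose by 1.45-fold and 1.22-fold. Tfap2a did not pass. The number called higher was 3 with DMSO replicate 1 left out, 1 with DMSO replicate 2 left out and 0 with iBRD9 replicate 3 left out, whereas 4 were called lower without any 1 library. Sox9 and Tfap2c were at the floor of detection in both groups. The 6 called of 7 tested compare with 60.7% of all tested genes, and the groups did not overlap in these same 6, against 68.0% of all tested genes, so the calls are read by size and direction rather than by number. The median log2 fold change of the 7 was -0.68. In bulk RNA, fewer cells that express a gene and less of its RNA per cell cannot be told apart.

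**Figure D1:**
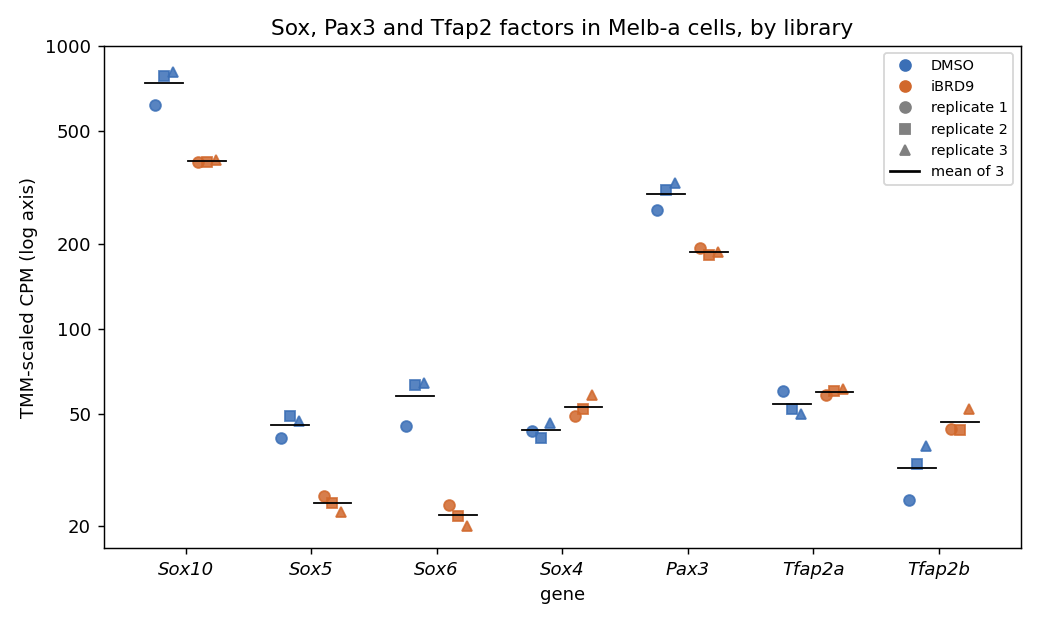
TMM-scaled CPM (log axis) of the 7 tested lineage factors in each library, DMSO in blue and iBRD9 in orange, with a symbol for each replicate number and a bar at the mean of 3. Sox10 lies at 619 to 811 CPM with DMSO and 387 to 395 CPM with iBRD9, and Tfap2a is the only gene shown whose groups overlap.

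Sox10 (ENSMUSG00000033006) stood at 619, 786 and 811 CPM in DMSO replicates 1, 2 and 3, and at 387, 389 and 395 CPM in the iBRD9 replicates. Every iBRD9 library was below every DMSO library, and the spread differed, with a coefficient of variation of 14.1% with DMSO and 1.05% with iBRD9. The log2 fold change was -0.92 (SE 0.098, 95% interval -1.15 to -0.70, edgeR adjusted p = 0.00012), and 878 of the 13602 tested genes had a lower value. DMSO replicate 1, the lowest of its group, lay a fraction of 0.355 of the way on the log2 scale from the mean of the other DMSO libraries to the iBRD9 mean. Without it the log2 fold change was -1.04, and over all 14 alternatives it ran from -1.04 to -0.81, with an adjusted p of at most 0.00192.

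The other SoxE genes were at the floor. Sox9 (ENSMUSG00000000567), which drives cartilage and gonad development and is active in some pigment cells, had 2, 3 and 1 counts in the DMSO libraries and 0, 0 and 1 with iBRD9. Sox8 had 0 counts in all libraries but iBRD9 replicate 1, with 1. A level of 3 counts corresponds to 0.0974 to 0.130 CPM in these libraries, so a level of these genes below that was not detectable at this depth, and no fold is given. Sox10 was thus the sole SoxE gene above the floor in both groups.

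The SoxD genes split. Sox6 (ENSMUSG00000051910) stood at 45.3, 63.1 and 64.2 CPM with DMSO and 23.8, 21.8 and 20.1 CPM with iBRD9. The groups were well apart, with DMSO replicate 1 again nearest to iBRD9. Its log2 fold change of -1.39 (SE 0.138, 95% interval -1.71 to -1.08, adjusted p = 8.02e-05) was the largest among the 9 factors, and 397 tested genes had a lower value. Sox5 (ENSMUSG00000041540), its closest relative, stood at 41.2, 49.1 and 46.9 CPM with DMSO and 25.6, 24.3 and 22.5 CPM with iBRD9. The groups were again apart, with a log2 fold change of -0.92 (SE 0.088, 95% interval -1.12 to -0.72, adjusted p = 6.61e-05). By the same measure as for Sox10, DMSO replicate 1 lay 0.319 of the way to iBRD9 for Sox6 and 0.224 for Sox5. Over the 14 alternatives Sox6 ran from -1.54 to -1.28 and Sox5 from -1.00 to -0.82, both ends called. Sox13, the remaining SoxD gene, was low but went the other way, from 1.95, 2.13 and 1.81 CPM with DMSO to 4.90, 3.60 and 3.76 CPM with iBRD9 (log2 fold change 1.06, SE 0.182, adjusted p = 0.00128).

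Few reads were assigned to the counted genes that overlap Sox5 and Sox6 in the annotation. The antisense transcript Sox5os3, which shares no exon with Sox5, had 3 to 8 counts with DMSO and 8 to 16 with iBRD9, and Sox5os1, which does share one, had at most 3 counts in a library. Sox6os had 9 to 19 counts with DMSO and 6 to 11 with iBRD9, against 476 to 1600 counts of Sox6. Gm44068, which overlaps Sox5, and Gm45025, which overlaps Sox6, were not among the counted genes. As the strand setting of the counting was not given, reads of overlapping genes that were counted to Sox5 or Sox6 are not known.

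The share of Sox5 within the SoxD pair was higher with iBRD9 in every library. The log2 ratio of Sox5 to Sox6 counts was -0.14, -0.36 and -0.45 with DMSO and 0.10, 0.16 and 0.16 with iBRD9. The means differed by 0.46, from -0.32 ± 0.162 to 0.14 ± 0.034 (SD, n = 3), without overlap, at an exact two-sided permutation p = 0.1, which is the smallest that 3 against 3 libraries allow and is 0.15 after Benjamini-Hochberg adjustment over 3 ratios.

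Promoter sequences are shown for the called factors that the RefSeq table holds (GRCm38.p6, from 250 bases before to 50 bases after a start site), so that the genes that fell can be set beside those that rose. Entries were found for 5 of the 9 factors, Sox5, Sox6, Sox4, Tfap2a and Tfap2b. Sox10 and Pax3, which also fell, had no entry, so the genes that fell are shown in part only. Sox6 has 6 start sites in the table, of which the most upstream is printed, and the counts per gene do not say which of them was used. Capitals mark matches to the SOX motif (ACAAAG or ACAATG, either strand). The windows are read 5′ to 3′ on the gene's strand and lie at chr6:143947057-143947356 (minus strand) for Sox5, chr7:116038695-116038994 (minus strand) for Sox6, chr13:28953650-28953949 (minus strand) for Sox4 and chr1:19211804-19212103 (plus strand) for Tfap2b.
Sox5 promoter: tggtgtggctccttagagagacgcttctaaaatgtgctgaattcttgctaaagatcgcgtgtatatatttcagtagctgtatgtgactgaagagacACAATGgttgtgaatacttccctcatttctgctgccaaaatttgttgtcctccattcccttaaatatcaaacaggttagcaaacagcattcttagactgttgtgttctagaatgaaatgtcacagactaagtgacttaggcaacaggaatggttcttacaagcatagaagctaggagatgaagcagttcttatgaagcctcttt
Sox6 promoter: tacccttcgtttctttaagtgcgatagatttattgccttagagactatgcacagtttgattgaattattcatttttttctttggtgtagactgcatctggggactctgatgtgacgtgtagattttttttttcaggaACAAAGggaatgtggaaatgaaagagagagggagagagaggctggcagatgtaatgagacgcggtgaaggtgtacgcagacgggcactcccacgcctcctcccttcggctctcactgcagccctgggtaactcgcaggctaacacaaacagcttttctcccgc
Sox4 promoter: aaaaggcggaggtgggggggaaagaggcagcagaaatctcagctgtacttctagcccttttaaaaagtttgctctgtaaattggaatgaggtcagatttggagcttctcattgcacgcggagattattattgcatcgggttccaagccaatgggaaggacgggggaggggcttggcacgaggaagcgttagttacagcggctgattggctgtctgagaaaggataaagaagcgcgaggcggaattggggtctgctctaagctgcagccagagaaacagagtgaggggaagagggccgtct
Tfap2b promoter: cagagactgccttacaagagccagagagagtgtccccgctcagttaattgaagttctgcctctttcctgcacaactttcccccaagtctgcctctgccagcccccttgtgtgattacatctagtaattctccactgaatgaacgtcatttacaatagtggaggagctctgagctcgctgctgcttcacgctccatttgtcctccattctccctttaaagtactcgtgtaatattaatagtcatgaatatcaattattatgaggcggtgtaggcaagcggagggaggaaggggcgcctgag
The SOX letters occur at 1 place in the Sox5 window and in the printed Sox6 window, and at 0 places in the windows of Sox4 and Tfap2b. In order from the most upstream, the 6 Sox6 windows hold 1, 1, 4, 1, 3 and 0 matches. Both Tfap2a windows hold 0. Of all 32851 promoter windows of 300 bases, 28.6% hold at least 1 match. The AP-2 palindrome GCCNNNGGC, found in 16.6% of all windows, occurs in none of the windows of these factors, nor does the E-box CACGTG (7.15%). The E-box CATGTG, on either strand (14.2%), occurs at 1 place in each of 3 Sox6 windows, none of which is printed. A match describes letters alone, and no binding was measured.

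The SoxC gene Sox4 (ENSMUSG00000076431), which acts in many progenitor cells, rose slightly. It stood at 43.4, 41.1 and 46.3 CPM with DMSO and 48.9, 51.9 and 58.2 CPM with iBRD9. The lowest iBRD9 library was just above the highest DMSO library. The log2 fold change was 0.28 (SE 0.083, 95% interval 0.09 to 0.47, adjusted p = 0.0177), and 4509 tested genes had a higher one. The call was lost without DMSO replicate 2 (0.23, adjusted p = 0.0803) and without iBRD9 replicate 3 (0.21, adjusted p = 0.0818), where the lowest adjusted p of any alternative was 0.00182 and the highest 0.0818. Its relatives Sox12 and Sox11 had values of like size near the threshold. Sox12 went from 8.78 ± 1.29 to 10.9 ± 0.271 CPM (SD, n = 3; 0.32, edgeR adjusted p = 0.0492), a call lost without each library other than DMSO replicate 1 (0.21 to 0.33, adjusted p = 0.1 to 0.184) and kept without that one (0.42, adjusted p = 0.00107). The Sox12 call was also lost with the DESeq2 Wald test (adjusted p = 0.0544), without a filter on low counts (0.0645) and with a block for the replicate number (0.0522). Sox11 went from 6.78 ± 1.33 to 8.78 ± 0.206 CPM (0.37, adjusted p = 0.0518). It passed without DMSO replicate 1 (0.31, adjusted p = 0.0343) and without DMSO replicate 3 (0.54, adjusted p = 0.00704). It also passed with library size alone (adjusted p = 0.0182), with limma-voom (0.0389) and with at least 1 CPM in 3 libraries (0.041), among alternatives that reached 0.186.

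Among the Sox genes outside these groups, Sox2, a marker of stem cells and of Schwann cell precursors, fell from 11.1 ± 0.949 to 5.58 ± 0.0865 CPM (SD, n = 3), a log2 fold change of -0.99 (edgeR adjusted p = 0.00013). Sox21 stood at 1.43 ± 0.0707 and 1.58 ± 0.0694 CPM (0.15, adjusted p = 0.509). Of the 14 other Sox genes looked at, 5 were tested, with 1 lower and 2 higher (3 with DMSO replicate 1 left out, and 1 with DMSO replicate 2 or any 1 iBRD9 library left out), and 4 had 0 counts in every library. These counts are near the shares of all tested genes, of which 60.7% were called, 30.9% lower and 29.8% higher.

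Pax3 (ENSMUSG00000004872), a paired-box factor of crest and muscle progenitors, stood at 263, 309 and 326 CPM with DMSO and 193, 182 and 187 CPM with iBRD9. The iBRD9 values were close together and all below the DMSO values, of which replicate 1 was again the lowest, 0.359 of the way to iBRD9. The log2 fold change was -0.68 (SE 0.082, 95% interval -0.86 to -0.49, adjusted p = 0.00023), and 1530 tested genes had a lower one. Over the 14 alternatives it ran from -0.77, which is the value without DMSO replicate 1, to -0.57, and was called in each. The log2 ratio of Pax3 to Sox10 counts was -1.24, -1.35 and -1.31 with DMSO and -1.00, -1.10 and -1.08 with iBRD9. The ratio was higher in every iBRD9 library, by 0.24 on average (exact two-sided permutation p = 0.1, adjusted 0.15 over 3 ratios). In these libraries Pax3 counts were thus reduced by less than Sox10 counts. The exact test cannot go below 0.1 here, so it does not settle whether the falls differ in size. Pax7, the nearest relative of Pax3, had a single count in 1 library. Of the 8 other Pax genes only Pax9 (4.39 ± 0.666 and 4.12 ± 0.143 CPM, SD, n = 3) and Pax5 (1.11 ± 0.201 and 1.33 ± 0.169 CPM) were tested. Neither passed, at log2 fold changes of -0.09 (edgeR adjusted p = 0.627, and 0.01 with library size alone) and 0.25 (adjusted p = 0.370).

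The Tfap2 genes did not follow Sox10 and Pax3. Tfap2a (ENSMUSG00000021359), whose AP-2α protein is needed for crest and for melanocytes, stood at 60.0, 51.7 and 49.9 CPM with DMSO and 58.2, 60.0 and 61.2 CPM with iBRD9. DMSO replicate 1 lay among the iBRD9 libraries, and the other DMSO libraries lay below them. The log2 fold change was 0.15 (SE 0.079, 95% interval -0.03 to 0.33, adjusted p = 0.131). Without DMSO replicate 1 it passed (0.22, adjusted p = 0.000426), as it did with library size alone (0.25, adjusted p = 0.0367), whereas the least certain alternative gave 0.388. The interval of the difference covers a rise of up to 0.33 and excludes a fall of the size seen for Sox10 or Pax3. An antisense gene that shares exons with it, Gm26688, had 101 to 148 counts against 1184 to 1793 of Tfap2a, and reads of the pair cannot be told apart where the counting ignored strand.

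Tfap2b (ENSMUSG00000025927), which encodes the closely related AP-2β, stood at 24.8, 33.3 and 38.4 CPM with DMSO and 44.2, 43.6 and 52.1 CPM with iBRD9. All iBRD9 libraries were above the DMSO libraries, which varied the most of any tested factor (coefficient of variation 21.4%). The log2 fold change was 0.53 (SE 0.148, 95% interval 0.19 to 0.87, adjusted p = 0.0135). Here DMSO replicate 1 was the library farthest from iBRD9, and without it the value was 0.37 (adjusted p = 0.000485, its lowest). The call was lost without iBRD9 replicate 3 (0.44, adjusted p = 0.0607, its highest). The log2 ratio of Tfap2b to Tfap2a counts was -1.27, -0.64 and -0.38 with DMSO and -0.40, -0.46 and -0.23 with iBRD9. The groups overlapped, with a mean difference of 0.40 (exact two-sided permutation p = 0.3, 0.3 after adjustment) that was 0.14 without DMSO replicate 1. Tfap2c (ENSMUSG00000028640), which acts in germ cells and trophoblast, had 0, 1 and 0 counts with DMSO and 1, 2 and 0 with iBRD9. Tfap2e had at most 1 count in a library and Tfap2d 0.

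**Figure D2:**
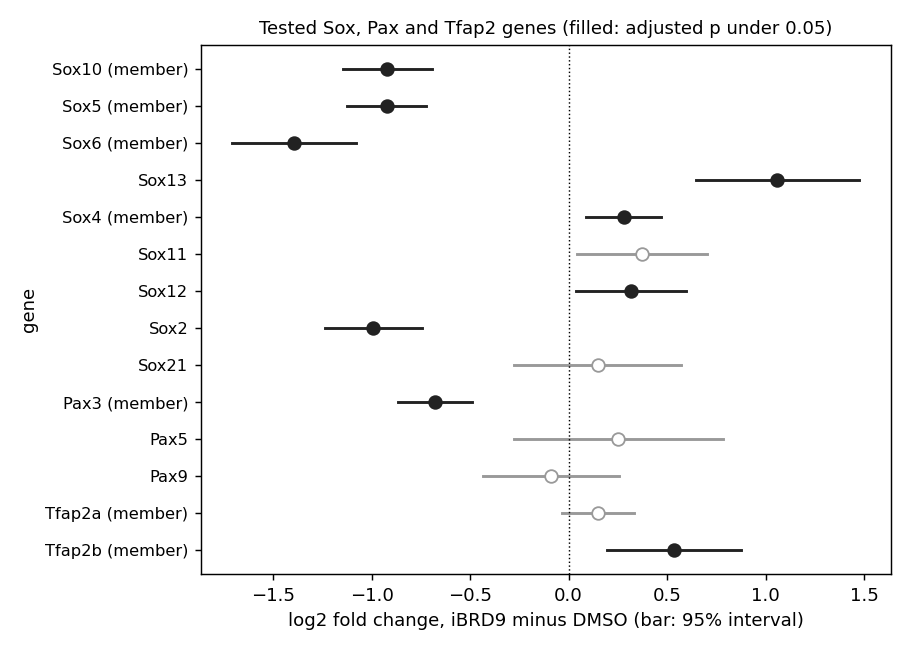
Log2 fold change (iBRD9 minus DMSO) with its 95% interval for the 14 Sox, Pax and Tfap2 genes that were tested, 7 of them among the 9 lineage factors. Sox10, Sox5, Sox6, Sox2 and Pax3 lie below 0 with their whole intervals, and Pax9 lies at -0.09 with an interval that spans 0. Sox13 lies at 1.06, and Tfap2b and the SoxC genes Sox4, Sox11 and Sox12 lie between 0.28 and 0.53.

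Levels of different genes were set side by side per kilobase of the longest coding transcript in GENCODE M21. With DMSO the order was Sox10 (266 ± 37.4 CPM per kb, SD, n = 3), Pax3 (77.5 ± 8.50), Tfap2a (15.5 ± 1.55), Sox4 (9.10 ± 0.544), Sox6 (6.64 ± 1.23), Sox5 (6.32 ± 0.569) and Tfap2b (5.49 ± 1.17). The first 4 were each apart from the next in every library, whereas the ranges of Sox6, Sox5 and Tfap2b overlapped. With iBRD9 the order at the top was the same, at 140 ± 1.47 CPM per kb for Sox10, 48.5 ± 1.47 for Pax3, 17.2 ± 0.426 for Tfap2a and 11.1 ± 0.993 for Sox4, followed by Tfap2b (7.96 ± 0.812), Sox5 (3.33 ± 0.212) and Sox6 (2.53 ± 0.216). Tfap2b thus had the lowest mean with DMSO, though not the lowest level in every library, and was above Sox5 and Sox6 with iBRD9. With the mean length of the coding transcripts, a choice made after seeing the data, the means of Sox5 (13.4) and Sox6 (12.1) came before Sox4 (9.10) with DMSO. Tfap2b still had the lowest mean with DMSO (8.91). Its DMSO libraries (6.88 to 10.65) spanned those of Sox4 (8.58 to 9.66) and overlapped those of Sox6 (9.50 to 13.48), so its rank was not settled. With iBRD9 it was above Sox5 and Sox6 (12.9 against 7.08 and 4.60).

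**Figure D3:**
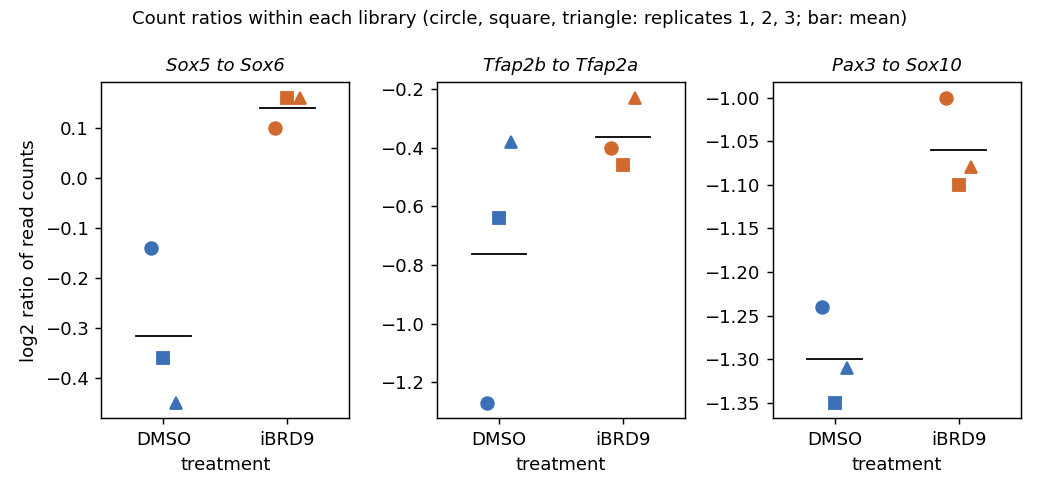
Log2 ratio of read counts of Sox5 to Sox6, Tfap2b to Tfap2a and Pax3 to Sox10 in each library, with a symbol for each replicate number and a bar at the group mean; each panel has its own axis. The Sox5 to Sox6 and Pax3 to Sox10 ratios are higher in every iBRD9 library than in any DMSO library, and DMSO replicate 1 lies far from the others in the Tfap2b to Tfap2a panel, at -1.27.

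Of the factors that fell, Sox10, Sox5 and Pax3 had the closest profiles over the 6 libraries, and Sox6 was farther from them. As a measure of likeness, the log2 CPM of each gene was centred on its own mean and the root mean square (RMS) difference between genes was taken over the 6 libraries. Sox10 and Sox5 differed by 0.085, Sox10 and Pax3 by 0.127, and Sox5 and Pax3 by 0.141. Sox6 differed from Sox5 by 0.247, from Sox10 by 0.250 and from Pax3 by 0.366. Among the others, Sox4 and Tfap2a differed by 0.134, Sox4 and Tfap2b by 0.222, and Tfap2a and Tfap2b by 0.339. Nearest profiles were sought among 9203 genes whose log2 CPM averaged 3 or more. Predicted or unnamed gene models, and pseudogenes marked -ps, had been left out of these. For Sox10 the nearest were Akr1a1, an aldehyde reductase (0.014), Nme6 (0.020) and Zfp24 (0.023). The nearest to Pax3 were Smim10l1 (0.017), Kif16b (0.019) and Clmn (0.022), and to Sox5 they were Pde4dip (0.016), Igsf11 (0.037) and Tspan9 (0.038). For Sox6 they were Deptor, an inhibitor of mTOR (0.033), Lrrc8d (0.044) and Arhgef2 (0.058). For the factors that did not fall, the nearest were Zc3h8 (0.026), Tmed1 (0.041) and Pdlim5 (0.047) for Sox4, Bnip2 (0.012), Trak2 (0.018) and Dhx38 (0.019) for Tfap2a, and Shf (0.081), Enox1 (0.081) and Ccdc112 (0.099) for Tfap2b. These libraries share 1 contrast, so a close profile is a description of 6 values.

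The lists of genes that follow are read against all tested genes, of which 60.7% were called, 30.9% lower and 29.8% higher. Among 7 coactivators and inhibitors of AP-2, 6 were tested, of which 2 rose, 3 fell and 1 did not pass (median log2 fold change -0.02), counts too small to be set apart from those shares. Cited2, an AP-2 coactivator, rose from 48.7 ± 1.70 to 94.2 ± 5.41 CPM (SD, n = 3; log2 fold change 0.95, edgeR adjusted p = 1.62e-05), and Cited1, its relative in pigment cells, fell from 134 ± 10.9 to 75.4 ± 2.59 CPM (-0.83, adjusted p = 4.26e-05). Kctd15 and Kctd1, which encode inhibitors of AP-2, fell by 0.53 and 0.25 on the log2 scale, the latter not called with library size alone (-0.14, adjusted p = 0.0825, whereas other alternatives went as low as 0.000524). Wwox rose by 0.33 (adjusted p = 0.0411), a call lost without DMSO replicate 2 or any 1 of the iBRD9 libraries (0.33 in each case, adjusted p = 0.097 to 0.107, against 0.00957 at the lowest). The list then had 1 gene called higher, or 2 without iBRD9 replicate 1.

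All 14 cofactors and regulators of SOX and PAX3 proteins were tested. Of these, 3 rose, 6 fell and 5 did not pass, with a median of -0.01, so that the 9 called of 14 are near the 60.7% of all tested genes. The genes of the coactivators YAP and TAZ, which TEAD and PAX3 proteins recruit, fell, Yap1 from 142 ± 2.50 to 95.5 ± 2.23 CPM (SD, n = 3; -0.58, edgeR adjusted p = 5.29e-05) and Wwtr1 from 154 ± 40.8 to 86.8 ± 3.34 CPM (-0.82, adjusted p = 0.00363). Wwtr1 varied within DMSO, at 107 CPM in replicate 1 and 172 and 181 CPM in the others. Lef1, a Wnt effector, fell from 5.06 ± 0.225 to 2.84 ± 0.511 CPM (-0.82). The rises were small, among them Hdac2 (0.20), the gene of a histone deacetylase, and Fbxw7 (0.19), the gene of a ubiquitin ligase subunit that acts on SOX proteins. Without DMSO replicate 2 no gene of the list was called higher (0 genes, with an adjusted p of 0.0598 for Hdac2 and 0.0832 for Fbxw7), and without iBRD9 replicate 3, 1 was, with Hdac2 at 0.0599 and Fbxw7 at 0.0818. Fbxw7 was also lost without DMSO replicate 3 (0.0921), iBRD9 replicate 1 (0.0869) or iBRD9 replicate 2 (0.074). The lowest adjusted p of any alternative was 0.00012 for Hdac2 and 0.00416 for Fbxw7. Without DMSO replicate 1, 5 genes of the list rose. Ctbp2, the gene of a corepressor that SOX6 recruits, stood at 51.3 ± 0.641 and 51.1 ± 2.73 CPM (0.00, adjusted p = 0.954).

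Of 17 genes known as targets of SOX10, 13 were tested, of which 9 fell, 2 rose and 2 did not pass. Over all tested genes 60.7% were called and 30.9% were lower. The targets had a median log2 fold change of -1.55 against 0.01 over all tested genes. Gjb1, a connexin gene best known from myelinating glia, fell from 11.0 ± 2.26 to 2.80 ± 0.270 CPM (SD, n = 3; -1.97), and the pigment enzyme gene Tyr fell as well (-2.61). Mitf did not pass, at 1219, 1356 and 1317 CPM with DMSO and 1244, 1179 and 1195 CPM with iBRD9 (-0.10, adjusted p = 0.184). Without DMSO replicate 1 it passed (-0.16, adjusted p = 0.00374) and with library size alone its value was 0.00 (adjusted p = 0.979), the ends of its range. The members that rose were Dct (0.31), a pigment enzyme gene, and Pou3f1 (5.81 ± 1.07 to 8.52 ± 1.30 CPM, 0.55, adjusted p = 0.0230), a Schwann cell regulator. The Pou3f1 call was lost without DMSO replicate 2 (0.55, adjusted p = 0.059), iBRD9 replicate 2 (0.48, 0.0862) or iBRD9 replicate 3 (0.47, 0.0868), leaving 1 target called higher, while its lowest adjusted p was 0.00759. Ednrb, the endothelin receptor gene of melanoblasts, was not tested, at 0.118 to 0.379 CPM with DMSO and 0.0400 to 0.127 CPM with iBRD9. Schwann cell markers, several of which are on the SOX10 list, summed to 401 to 468 CPM with DMSO and 98.8 to 111 CPM with iBRD9, and all 6 tested of 8 fell, with Ngfr at or near 0 in both groups. Their part in the Sox10 result was not tested.

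**Figure D4:**
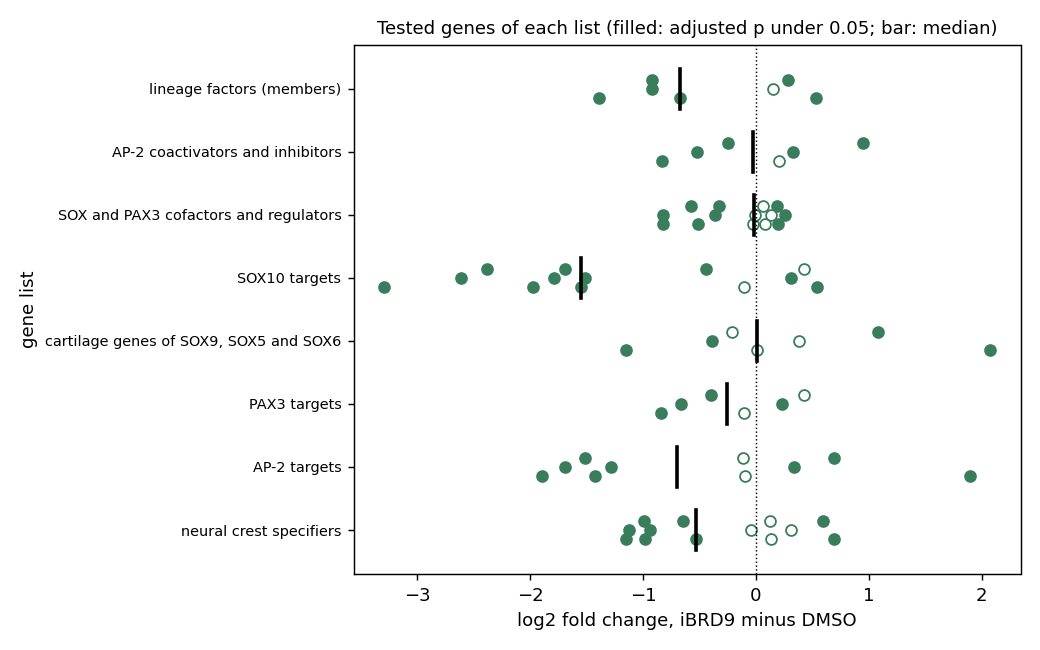
Log2 fold change (iBRD9 minus DMSO) of the tested genes of each list, filled where called and open where not, with a bar at the median. The SOX10 targets have the lowest median, -1.55, and the medians of the cofactors (-0.01), the AP-2 coactivators and inhibitors (-0.02) and the cartilage genes (0.01) lie near 0.

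Of 12 genes known as PAX3 targets, 6 were tested, of which 3 fell, 1 rose and 2 did not pass (median -0.25). The 4 called of 6 are near the 60.7% of all tested genes, and the median was -0.12 without a filter on low counts, -0.15 with library size alone and -0.38 with at least 1 CPM in 3 libraries. Hes1, a Notch effector, fell from 6.43 ± 0.747 to 3.61 ± 0.637 CPM (SD, n = 3; -0.84, edgeR adjusted p = 0.00256), the pigment gene Tyrp1 by 0.66 and the receptor gene Met by 0.40 on the log2 scale. Tbx2, a repressor of senescence genes, rose (0.23, adjusted p = 0.0340), a call lost without any 1 library but DMSO replicate 1 and iBRD9 replicate 3 (0.15 to 0.26, adjusted p = 0.0579 to 0.151, against 0.00268 at the lowest), which left 0 genes called higher. The muscle genes Myf5 and Myod1, activated by PAX3 in muscle progenitors, were at the floor.

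Of 14 genes known as AP-2 targets, 10 were tested, of which 5 fell, 3 rose and 2 did not pass, beside 30.9% lower and 29.8% higher of all tested genes. The median of -0.70 depended on which genes entered it, at -0.10 without a filter on low counts and -0.09 with at least 1 CPM in 3 libraries. Mcam, an adhesion molecule gene, rose from 142, 118 and 119 CPM to 447, 460 and 500 CPM (1.89, edgeR adjusted p = 3.03e-06), with Igf1r (0.69) and the thrombin receptor gene F2r (0.34) also higher. E-cadherin (Cdh1) fell from 6.46 ± 0.183 to 1.74 ± 0.231 CPM (SD, n = 3; -1.89), the receptor gene Erbb3, also on the SOX10 list, by 1.51 on the log2 scale and the matrix protease gene Mmp2 with a log2 fold change of -1.43. Kit stood at 508, 376 and 362 CPM with DMSO and 404, 382 and 368 CPM with iBRD9, groups that overlapped (-0.11, adjusted p = 0.448, and 0.05 without DMSO replicate 1).

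Of 21 other specifiers of the neural crest, 13 were tested, of which 7 fell, 2 rose and 4 did not pass. The 9 called of 13 are near the 60.7% of all tested genes, of which 30.9% were lower. The median was -0.53, and -0.32 without a filter on low counts. Foxd3, an early crest factor that restrains the melanocyte fate, fell from 25.5 ± 3.15 to 11.5 ± 0.748 CPM (SD, n = 3; -1.15, edgeR adjusted p = 6.77e-05), as did Id3 (56.2 ± 17.2 to 25.8 ± 6.47 CPM, -1.13) and Myc (-0.99). Id3 was not called without a filter on low counts (-1.13, adjusted p = 0.0665, against 0.000609 at the lowest). Nr2f2, an orphan nuclear receptor gene, rose from 67.5 ± 13.0 to 109 ± 4.12 CPM (0.70, adjusted p = 0.00137), and Id1 rose from 3.54 ± 0.331 to 5.37 ± 1.33 CPM (0.59, adjusted p = 0.0295). The Id1 call was lost without DMSO replicate 2 (0.65, adjusted p = 0.0501), DMSO replicate 3 (0.51, 0.0815), iBRD9 replicate 2 (0.62, 0.0669) or iBRD9 replicate 3 (0.39, 0.114), and its lowest adjusted p was 0.00845. In these cases, except that of DMSO replicate 3, 1 specifier was called higher.

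Of 12 cartilage genes that SOX9 activates with SOX5 and SOX6, 7 were tested, of which 2 fell, 2 rose and 3 did not pass (median 0.01), shares near those of all tested genes (60.7% called). Col9a2 rose from 4.56, 2.72 and 2.07 CPM to 13.5, 13.1 and 12.6 CPM (2.07, edgeR adjusted p = 0.00015) and Col27a1 from 9.38, 4.93 and 3.92 CPM to 13.2, 12.8 and 12.5 CPM (1.08, adjusted p = 0.00792). In both, DMSO replicate 1 was the DMSO library nearest to iBRD9. Col11a1 fell by 1.15 and Col9a1 by 0.39 on the log2 scale. Acan and Matn1, which mark chondrocytes, were at the floor, and Col2a1 stood at 5.35 ± 0.881 and 4.62 ± 0.309 CPM (SD, n = 3; -0.21, adjusted p = 0.252).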

How the data were processed

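RNA-seq read counts of 6 Melb-a libraries, 3 with DMSO and 3 with iBRD9, were used. The authors deposited raw counts per Ensembl gene ID, 1 column per sample. The submitters' processing notes list CASAVA 1.8.2, Bowtie2 2.4.5 and GRCm39. Program, annotation release and strand setting of the counting were not given in the sources used here. Of the 35275 IDs, 34490 matched a symbol. The labels call the samples independent, and do not say what they share, so p-values measure the spread between these samples.

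From the counts, genes were kept by filterByExpr (minimum count 10, 13602 genes), scaled by TMM and tested with the quasi-likelihood F-test of edgeR 4.0.16 (R 4.3.3), treatment as the sole term, two-sided, with Benjamini-Hochberg adjustment over all tested genes. SE is the log2 fold change divided by the square root of F. On simulated counts of 13421 genes in this design, 183 of 196 genes changed by 2-fold were recovered (93.4%), with 3 false calls. The simulation changed a far smaller share of genes than the 60.7% called here. It used the same dispersion for every gene and set no library apart, so its rates do not carry over to these data. Alternatives were DESeq2 size factors, library size alone, DESeq2 1.42.0 (Wald test), limma-voom (3.58.1), other filters, a threshold of 0.01, a block for the replicate number and fits without each library in turn. Count ratios within a library used a pseudocount of 0.5. Transcript lengths come from GENCODE M21, of an older build, and promoters from RefSeq. Figures were drawn with matplotlib 3.10.9.

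The 9 genes and the lists were chosen with earlier results of these data known. Genes named are the 9 factors, Mitf, Kit and Brd9, tested Sox, Pax and Tfap2 genes, up to 3 called genes per direction and list (mean log2 CPM of at least 1) and the 3 nearest profiles of each factor. The other genes named, those at or near the floor, Col2a1, Ctbp2 and the markers, were chosen after their values were seen. Some genes that this rule names are not reported here.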

Additional observations from a re-analysis of the deposited data

How the results depend on the processing

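Sox10, Sox5, Sox6 and Pax3 were called lower under all 14 alternatives, and no tested factor changed direction. With an adjusted p under 0.01 the calls of Sox4 (0.28) and Tfap2b (0.53) were lost, leaving 0 factors called higher; leaving out 1 library gave 0 to 3 higher and 4 lower. Leaving out 1 library gave -1.04 to -0.85 for Sox10, -1.00 to -0.88 for Sox5, -1.54 to -1.31 for Sox6, -0.77 to -0.62 for Pax3, 0.21 to 0.33 for Sox4, 0.37 to 0.67 for Tfap2b and 0.09 to 0.22 for Tfap2a, which passed with library size alone (0.25).

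Brd9 (0.05, adjusted p = 0.624) ranged from -0.04 to 0.12 and Kit from -0.21 to 0.05 when 1 library was left out, and with library size alone Mitf had 0.00 and Pax9 0.01. Library size alone gave medians of 0.42 (other Sox genes), 0.08 (AP-2 coactivators), 0.09 (cofactors), -1.44 (SOX10 targets), -0.15 (PAX3 targets), -0.59 (AP-2 targets) and -0.42 (crest specifiers), with 5 cofactors and 4 crest specifiers higher. Without a filter the medians were 0.71 (other Sox), -1.79 (other Pax), -0.12 (PAX3 targets), -0.10 (AP-2 targets) and -0.32 (crest specifiers). With at least 1 CPM in 3 libraries they were 0.01 (cofactors), -0.38 (PAX3 targets) and -0.09 (AP-2 targets); both filters change which genes enter the median. Of the other Sox genes 1 was higher with the DESeq2 Wald test, without a filter and with the replicate block. At 0.01, 1 was higher among other Sox genes, AP-2 coactivators, cofactors, SOX10 targets and crest specifiers, and 0 among PAX3 targets.

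Leaving out 1 library, the genes called higher ranged from 1 to 3 (other Sox), 1 to 3 (AP-2 coactivators), 0 to 5 (cofactors), 1 to 2 (SOX10 targets), 0 to 1 (PAX3 targets) and 1 to 2 (crest specifiers). The medians ranged from 0.21 to 0.33 (other Sox), -0.06 to 0.00 (AP-2 coactivators), -0.05 to 0.00 (cofactors), -0.28 to -0.24 (PAX3 targets), -0.80 to -0.68 (AP-2 targets) and -0.63 to -0.47 (crest specifiers).

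Same-numbered libraries deviated together with correlations of 0.118, 0.06 and 0.025, too weak to pair the samples. With the replicate block 3920 genes were higher and 4017 lower, the log2 fold change of Sox10 was -0.91, and Sox12 (0.32, adjusted p = 0.0522), Fbxw7 (0.0551) and Tbx2 (0.0538) lost their calls, which left 0 PAX3 targets higher; no call of the 9 factors changed. Not every DMSO library correlated best with its own number (DMSO replicate 3 did so with iBRD9 replicate 2, 0.047). Sox9 and Tfap2c could not be assessed at this depth.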
